A study of Homo sapiens with 4 samples.

Results

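The HOX genes of the 4 human clusters were examined in HEK-293T cells with and without THUMPD1, in a line derived from embryonic kidney. Members were all entries of the deposited count table whose symbol is HOX, a cluster letter from A to D and a paralog number, which gave 39 of the 18917 genes in the table. RNA-seq of total RNA had been made in 4 libraries, 2 of WT and 2 of THUMPD1 KO, all grown in DMEM with 10% fetal bovine serum and 2 mM glutamine. THUMPD1 is a protein needed for the acetylation of cytidine in certain tRNAs, and whether its loss moved HOX mRNA was the question asked of these genes here. According to the study's methods the KO cells came from HEK-293T cells cotransfected with plasmids that carry Cas9, GFP and either of a pair of THUMPD1 guides. They were sorted on GFP and later by single cell, so the edit and the choice of a clone cannot be told apart here. The labels call the line HEK293 and give kidney embryonic as the cell type. Whether the 2 libraries of a genotype came from separate cultures is not stated, so the p-values measure only the spread between these samples.

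HOX genes encode homeodomain transcription factors that set position along the body axis and in the limbs and kidney. They lie in clusters in which gene order follows the order of expression along the embryo, with low paralog numbers used early and towards the head and high numbers late and towards the tail. Genes of the same number in different clusters are paralogs with related DNA binding. Cultured lines keep a HOX pattern of their own, held by Polycomb repression and by MLL activation.

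Library totals ran from 7875722 to 11362363 counts, with WT replicate 1 the lowest, and the HOX genes took 10490 to 16721 of these. Values below are CPM, counts set relative to a library total that TMM corrects for differences in composition. A fold change is KO against WT. THUMPD1 itself fell, from counts of 356 and 468 in WT to counts of 71 and 58 in KO, a log2 fold change of −2.93 (SE 0.17) with an adjusted p of 1.27e-12. This p and all adjusted p-values below come from the quasi-likelihood test of edgeR, adjusted by Benjamini-Hochberg over all tested genes, unless another tool is named, and a gene is called at an adjusted p under 0.05. With 2 libraries against 2, an exact permutation test of a single gene cannot go below 0.333. Tested genes of chromosomes 7, 17, 12 and 2, which carry the HOXA, HOXB, HOXC and HOXD clusters, had median log2 fold changes of 0.03, −0.06, 0.01 and 0.04. In bulk RNA, a change in the number of cells that express a gene and a change in RNA per cell cannot be told apart.

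HEK-293T cells expressed most of the family, and the genotypes differed at few members. A filter of 1 CPM in at least 2 libraries left 35 of the 39 HOX genes among 13128 tested genes, and all 35 had at least 1 CPM in every library. HOXA4, HOXA5 and HOXA7 rose in KO cells, and HOXC11 and HOXC13 fell. These 5 calls were 14.3% of the tested HOX genes, against 20.9% of all tested genes. Calls of higher expression made up 8.57% of the HOX genes and 8.79% of all tested genes. Calls of lower expression made up 5.71% of the HOX genes and 12.1% of all. Both KO libraries lay above both WT libraries for 13 HOX genes, 37.1% against 30.4% of all tested genes. Both lay below for 7, 20% against 30%. The median log2 fold change of the HOX genes was 0.06, with an interquartile range of −0.09 to 0.17, and that of all tested genes was 0.01. Fold changes lay above 0 for 20 HOX genes, 57.1% against 51.4% of all tested genes. Whether these shares differ from those of other genes was not tested.

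**Figure D1:**
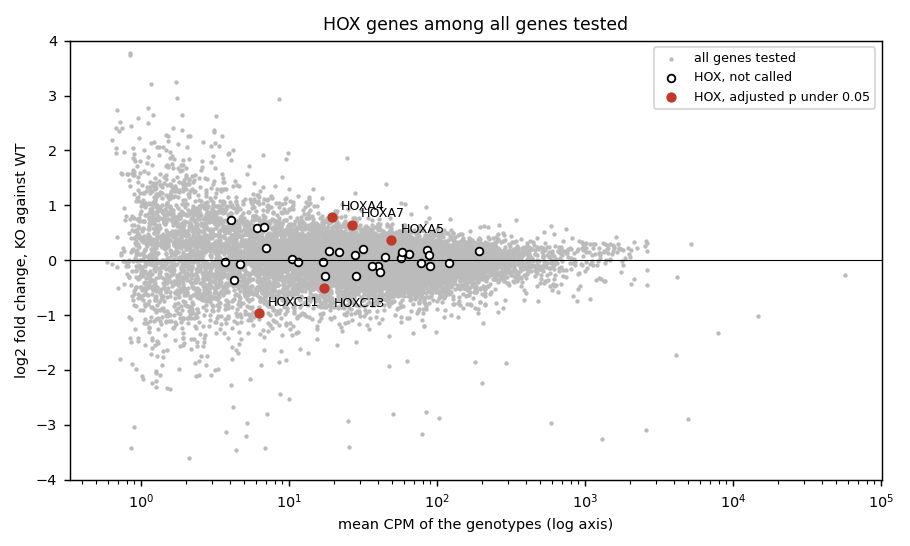
Log2 fold change, KO against WT, of each tested gene against its mean expression, with the 35 tested HOX genes drawn over the others. HOX genes lie around 0 with a median of 0.06, and 6 genes outside the axis limits are not shown.

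The HOXA cluster, on the minus strand of chromosome 7, held all 3 HOX genes that rose. HOXA4 is a factor of the neck and upper thorax. Its level was 10.6 and 17.7 CPM in WT and 23.4 and 26.4 CPM in KO. The genotypes did not overlap, although the WT libraries lay further apart than the KO libraries. The difference was 1.73-fold, a log2 fold change of 0.79 (SE 0.19) with an adjusted p of 0.00333. Leaving out WT replicate 1 gave 0.49, where the call was close to the threshold, and leaving out WT replicate 2 gave 1.23.

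HOXA7, a thoracic factor, had 20.7 CPM in both WT libraries and 31.3 and 33.7 CPM in KO. Replicates were close in both genotypes and the groups stood well apart. The difference was 1.57-fold, a log2 fold change of 0.65 (SE 0.14) with an adjusted p of 0.00136. HOXA4 and HOXA7 were the 2 HOX genes called under all 5 alternatives that kept the 4 libraries and in each fit that left out a library.

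HOXA5, which acts in lung and cervical development, had 41.0 and 45.0 CPM in WT and 53.8 and 57.3 CPM in KO. The groups did not overlap. The difference was 1.29-fold, a log2 fold change of 0.36 (SE 0.11) with an adjusted p of 0.0154. It was not called by DESeq2 (adjusted p = 0.0644), nor without WT replicate 1 (0.30, adjusted p = 0.0886) or KO replicate 2 (0.32, adjusted p = 0.0969).

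These 3 genes lie close together, on GRCh38 with HOXA4 at 27128507 to 27130780, HOXA5 at 27141052 to 27143681 and HOXA7 at 27153716 to 27157936. HOXA6, between HOXA5 and HOXA7, had 30.8 and 27.9 CPM in WT and 35.0 and 32.7 CPM in KO. KO was higher in both libraries, but the log2 fold change of 0.21 (SE 0.13) had an adjusted p of 0.267. HOXA3, on the other side of HOXA4, overlapped between the genotypes, with 56.6 and 67.2 CPM in WT and 68.1 and 66.7 CPM in KO. HOXA9 (75.4 and 85.5 CPM in WT, 97.3 and 85.5 CPM in KO) and HOXA10 (82.0 and 88.4 CPM in WT, 96.4 and 86.5 CPM in KO) had the highest levels of the cluster before length was taken into account. Neither was called, at log2 fold changes of 0.18 (SE 0.09) and 0.10 (SE 0.09), but HOXA9 was called with library size alone (0.27, adjusted p = 0.0284).

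HOXA2, HOXA11 and HOXA13 were not called either. HOXA2, a hindbrain factor, had 5.09 and 4.46 CPM in WT and 4.15 and 3.19 CPM in KO. HOXA11, used in limb and kidney, overlapped at 43.4 and 39.8 CPM in WT against 44.9 and 31.6 CPM in KO. HOXA13, the last gene, had 43.7 and 44.6 CPM in WT and 36.9 and 39.6 CPM in KO, with a log2 fold change of −0.21 (SE 0.11) and an adjusted p of 0.205. Summed over the cluster, the level was 429.5 and 462 CPM in WT and 515 and 485 CPM in KO, with no overlap, and 8 of the 11 members had fold changes above 0.

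In the HOXC cluster, on the plus strand of chromosome 12 (53938831 to 54056030), the 2 called genes fell and both carry high paralog numbers. HOXC11, a factor of the lower trunk and hind limb, had 7.69 and 8.83 CPM in WT and 4.32 and 4.13 CPM in KO, from 59 and 97 counts against 50 and 44. The groups did not overlap. WT was 1.96-fold higher, a log2 fold change of −0.97 (SE 0.30) with an adjusted p of 0.0204. HOXC11 was called in the fit without WT replicate 1. It was not called by DESeq2 (adjusted p = 0.0637), nor without WT replicate 2 (−0.86, adjusted p = 0.115), KO replicate 1 (−1.0, adjusted p = 0.0908) or KO replicate 2 (−0.94, adjusted p = 0.088).

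HOXC13, which acts in hair and nail formation, had 21.6 and 19.1 CPM in WT and 16.2 and 12.4 CPM in KO. KO was lower in both libraries, and KO replicate 2 was the lowest. WT was 1.41-fold higher, a log2 fold change of −0.50 (SE 0.18) with an adjusted p of 0.0469, close to the threshold. The call was lost with library size alone (adjusted p = 0.091), DESeq2 (adjusted p = 0.155) and limma-voom (adjusted p = 0.0629). It was also lost without WT replicate 1 (−0.41, adjusted p = 0.156) or KO replicate 2 (−0.32, adjusted p = 0.352).

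Other HOXC genes were not called. HOXC4 had 57.8 and 53.4 CPM in WT and 61.9 and 58.7 CPM in KO, and HOXC6 had 18.5 and 16.8 CPM in WT and 19.7 and 19.8 CPM in KO, so both were higher in KO without overlap. HOXC5 had 5.74 and 1.91 CPM in WT and 3.11 and 4.13 CPM in KO, with WT replicates further apart than the genotypes. HOXC8 had 11.1 and 12.0 CPM in WT and 10.0 and 12.7 CPM in KO. HOXC9 (35.1 and 39.9 CPM in WT, 35.9 and 33.8 CPM in KO) and HOXC10 (57.8 and 54.9 CPM in WT, 57.5 and 57.7 CPM in KO) overlapped between genotypes. The summed HOXC level was 215 and 207 CPM in WT and 209 and 203 CPM in KO, which overlapped.

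The HOXB cluster lies on the minus strand of chromosome 17 (48528526 to 48728750). None of its 9 tested members was called by edgeR, and 1 had an unadjusted p under 0.05. That gene was HOXB9, a factor of the thorax and kidney, with 183 and 180 CPM in WT and 204 and 203 CPM in KO. Its replicates differed little and the groups did not overlap. The 1.12-fold difference was a log2 fold change of 0.16 (SE 0.06) with an adjusted p of 0.0757. HOXB9 was called by limma-voom (adjusted p = 0.0168) and with library size alone as scaling (adjusted p = 0.00559), and no HOXB gene was called by DESeq2.

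HOXB2 and HOXB4 were higher in KO in both libraries at low counts. HOXB2 had 4.56 and 5.10 CPM in WT and 7.86 and 6.67 CPM in KO, a log2 fold change of 0.58 (SE 0.30). HOXB4 had 3.65 and 7.01 CPM in WT and 9.42 and 7.23 CPM in KO, a log2 fold change of 0.61 (SE 0.30). Their adjusted p-values were 0.175 and 0.163, and HOXB4 was called without WT replicate 2 (1.19, adjusted p = 0.0171).

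At the other end, HOXB13, a factor of the tail end and prostate, had 27 and 34.7 CPM in WT and 25.1 and 26.0 CPM in KO. Its log2 fold change of −0.28 (SE 0.14) had an adjusted p of 0.164, and it was called without WT replicate 1 (−0.44, adjusted p = 0.0381). HOXB6 had 90.6 and 95.4 CPM in WT and 90.4 and 82.2 CPM in KO. Together with HOXB7, at 19.6 and 19.0 CPM in WT and 17.7 and 13.7 CPM in KO, it was lower in KO without overlap. HOXB3 (82.0 and 75.3 CPM in WT, 78.8 and 73.5 CPM in KO), HOXB5 (11 and 9.83 CPM in WT, 8.72 and 12.4 CPM in KO) and HOXB8 (30.1 and 24.4 CPM in WT, 24.5 and 33.1 CPM in KO) overlapped.

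None of the 7 tested HOXD genes, on the plus strand of chromosome 2 (176092721 to 176190907), was called by edgeR, DESeq2 or limma-voom, and none had an unadjusted p under 0.05 in edgeR with TMM. With library size alone 2 had such a p. HOXD13, a digit and hindgut factor, was the most abundant of them per length. It had 131 and 115 CPM in WT and 115 and 120 CPM in KO, which overlapped. HOXD4 was higher in both KO libraries, at 3 and 3.09 CPM in WT and 4.41 and 5.73 CPM in KO, with a log2 fold change of 0.73 (SE 0.37) and an adjusted p of 0.175. HOXD11 was higher as well, with 58.7 and 51.9 CPM in WT and 59.3 and 62.5 CPM in KO. The 4 others overlapped. HOXD3 had 5.61 and 4 CPM in WT and 4.92 and 4.13 CPM in KO, and HOXD8 had 7.96 and 5 CPM in WT and 7.77 and 7.04 CPM in KO. HOXD9 had 20.5 and 13.8 CPM in WT and 17.8 and 15.4 CPM in KO, and HOXD10 had 43.7 and 42.9 CPM in WT and 43.6 and 46.8 CPM in KO. WT replicate 1 was the highest library for HOXD3, HOXD8, HOXD9 and HOXD13.

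**Figure D2:**
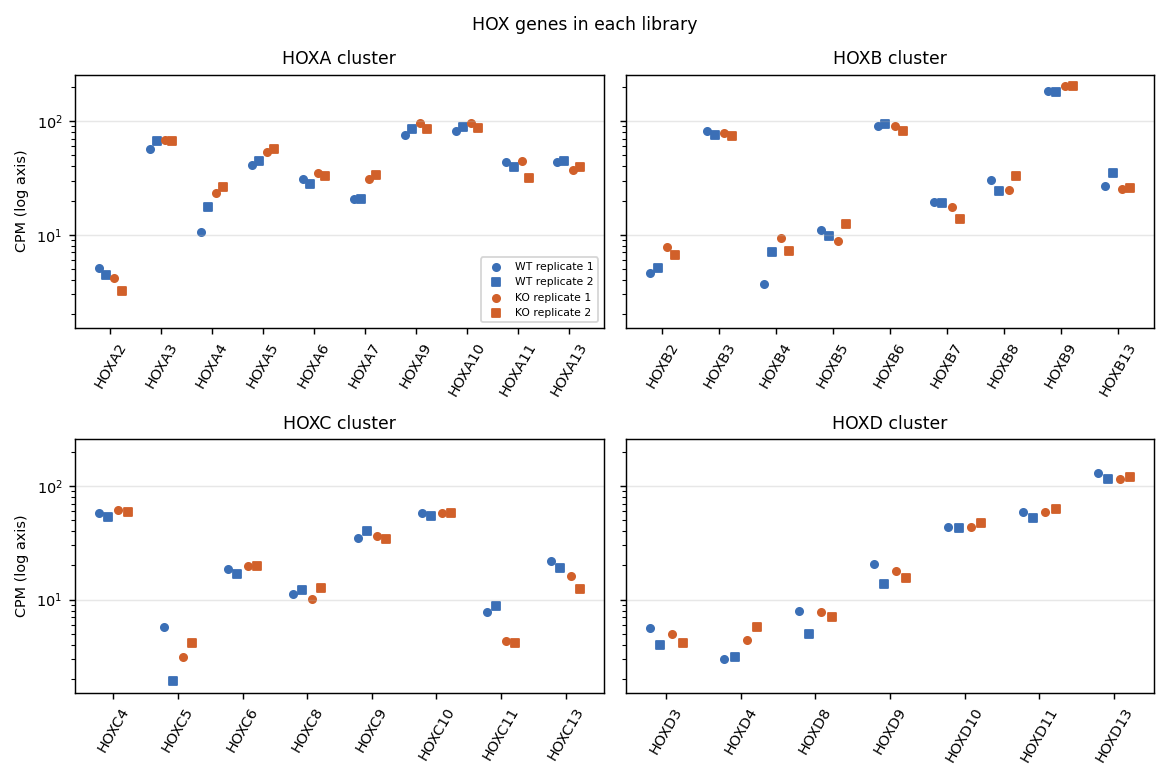
CPM of 34 tested HOX genes in each library, by cluster and paralog number, on a log axis, with each library as a point. HOXA4, HOXA5 and HOXA7 stand higher in both KO libraries, and HOXC11 and HOXC13 lower.

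The 4 members under the filter had few counts. In the order WT 1, WT 2, KO 1, KO 2, HOXB1 had 0, 0, 1 and 0 counts, HOXD1 had 9, 4, 7 and 3, and HOXD12 had 0, 2, 6 and 3. HOXC12 had 0 counts in all 4 libraries, and a count of 0 allows up to 3 counts, or 0.259 to 0.391 CPM depending on the library. These limits cover counting error only. HOXB1 belongs to the hindbrain and HOXC12 and HOXD12 to the tail end, and no fold change is given for any of the 4.

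Among paralog groups with more than 1 tested member, groups 4, 10 and 13 had all of them on the same side of 0. The 3 of group 10 lay between 0.04 and 0.10 and overlapped between genotypes. HOXA4, HOXB4, HOXC4 and HOXD4 were each higher in both KO libraries than in both WT libraries, with log2 fold changes of 0.79, 0.61, 0.12 and 0.73 and a median of 0.67. Their summed level was 75 and 81.2 CPM in WT and 99.2 and 98.0 CPM in KO. Of all tested genes, 30.4% had both KO libraries above both WT libraries. The gap was small for HOXB4, between 7.01 CPM in WT replicate 2 and 7.23 CPM in KO replicate 2. It was also small for HOXC4, between 57.8 CPM in WT replicate 1 and 58.7 CPM in KO replicate 2. Only HOXA4 among the 4 was called. All 4 lay above 0 under every alternative and with each library left out, with a median of 0.37 to 0.97.

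In group 13, HOXA13, HOXB13, HOXC13 and HOXD13 had log2 fold changes of −0.21, −0.28, −0.50 and −0.06, and for 3 of the 4 both KO libraries lay below both WT libraries, as for 30% of all tested genes. The summed level was 223 and 213 CPM in WT and 193 and 198 CPM in KO. HOXC13 alone was called, and HOXD13 lay above 0 with library size alone, with limma-voom and without WT replicate 1. By position, median log2 fold changes were 0.13 over the 10 tested genes of groups 1 to 4, 0.09 over the 11 of groups 5 to 8 and −0.04 over the 14 of groups 9 to 13. These groups were looked at with the values known, and no test was run on them.

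**Figure D3:**
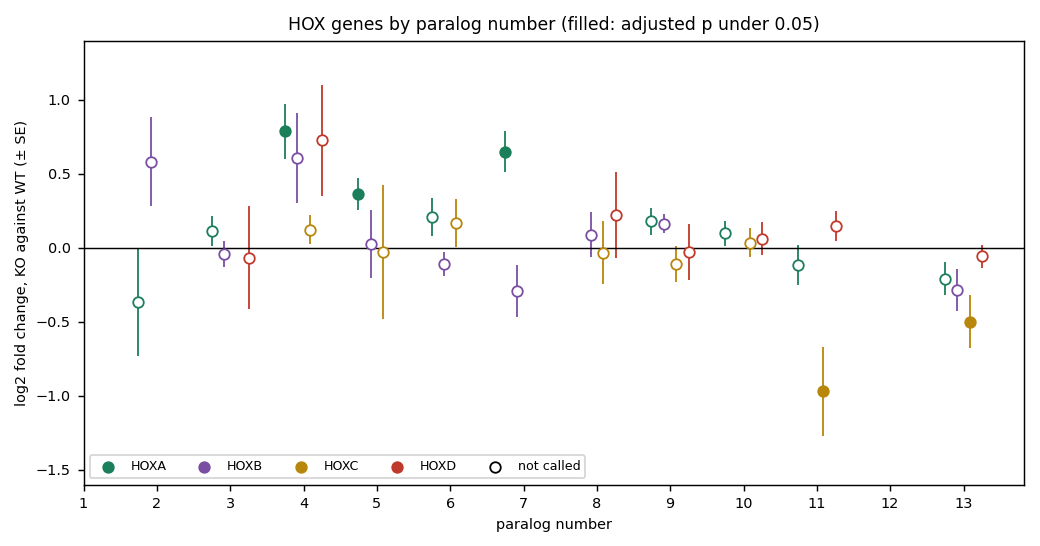
Log2 fold change of 34 tested HOX genes by paralog number, with bars of 1 SE, clusters by colour and called genes filled. The group 4 genes lie above 0 and the group 13 genes below, and the 5 called genes are those of HOXA and HOXC.

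Levels were compared between genes as CPM per kilobase of the annotated canonical transcript. HOXB9 was highest, at 70.9 and 69.7 in WT and 78.9 and 78.4 in KO, above every other HOX gene in each library. HOXB6 and HOXD13 followed, with means of 55.5 and 50.8 in WT and 51.5 and 48.7 in KO. The libraries of this pair overlapped, so their order is not separated. HOXA9 came next at 39.0 in WT and 44.3 in KO, above HOXA10 at 33.6 and 36.0 in every library of the same genotype. The lowest tested genes in WT were HOXD3 at 1.96, HOXC5 at 2.37, HOXD8 at 2.48 and HOXC11 at 2.53 CPM per kilobase, which overlapped in WT apart from HOXD3 and HOXC11. In KO, HOXC11 was lowest at 1.30, with both libraries below every library of the other tested HOX genes except 1 WT library of HOXC5.

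Several HOX genes share sequence with neighbours, and the sources used here do not state whether reads were counted by strand. By GENCODE 44, exons of 21 of the 39 genes overlap another gene, 17 of them an antisense gene. HOXA7 is overlapped over 74.8% of its transcript (1507 bases) by HOXA-AS3. HOXA4 shares 32.1% (541 bases) with a noncoding gene of its own strand and 14% (236 bases) with HOXA-AS2. HOXC13 shares 7.3% (172 bases) with HOXC13-AS, and no overlap is annotated for HOXA5 or HOXC11. None of the 19 listed HOX noncoding RNAs, HOTAIR and HOTTIP among them, has an entry in the table, and the part of their reads in the HOX counts was not tested. Other shared stretches include those of HOXC5 (67.3% with a gene of its own strand), HOXA11 (27.2% with HOXA11-AS) and HOXD11 (26.5% with HOXD10). Further ones are in HOXD8 (24.5% with HOXD-AS2), HOXA10 (23.9% with HOXA10-AS) and HOXA6 (21.1% with HOXA-AS3). HOXA9 shares 19.2% with a coding gene of its own strand, and HOXB6 shares 18.2% with HOXB-AS3. Counts of the genes with shared stretches are therefore uncertain. The percentages give shared bases, not the share of reads affected.

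The clusters also hold microRNA genes that pair with HOX mRNAs. MIR196B lies in the HOXA cluster (chr7:27169528-27169549, minus strand), MIR196A1 (chr17:48632532-48632553, minus) and MIR10A (chr17:48579904-48579926, minus) in HOXB, and MIR196A2 (chr12:53991762-53991783, plus) and MIR615 (chr12:54034010-54034031, plus) in HOXC. Mature sequences from RefSeq (GRCh38.p14) are shown because miR-196a and miR-196b share the seed that matches HOXA5 and HOXA7. Capitals mark the seed, bases 2 to 8.
hsa-miR-196a-5p: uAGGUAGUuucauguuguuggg
hsa-miR-196b-5p: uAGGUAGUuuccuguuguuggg
hsa-miR-10a-5p: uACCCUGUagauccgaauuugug
hsa-miR-615-3p: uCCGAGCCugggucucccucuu
The complement of the miR-196 seed, ACTACCT, was searched on the mRNA strand of annotated 3′ UTRs. It was found in 8 of the 39 HOX genes (20.5%, against 8.1% of 12957 genes), namely HOXA5, HOXA7, HOXA9, HOXB1, HOXB6, HOXB7, HOXB13 and HOXC8. HOXA5 held 1 match and HOXA7 held 4, shown with the match in capitals.
HOXA5, from base 441 of its 3′ UTR: gatatttttattcaaACTACCT
HOXA7, from base 302: tggcgcgtccaaaatACTACCT
HOXA7, from base 339: tcgaggcacccccaaACTACCT
HOXA7, from base 454: aaagtgaatctcactACTACCT
HOXA7, from base 472: acctactcccctaaaACTACCT
The median over the 7 tested genes with a match was −0.03 on the log2 scale, and over the 28 without it was 0.08. HOXA5 and HOXA7 rose. HOXB7, HOXB13, HOXB6 and HOXC8 had log2 fold changes of −0.29, −0.28, −0.11 and −0.03, and HOXA9 had 0.18. None of these was called by edgeR with TMM. The miR-10a match, ACAGGGT, was found in 7.7% of the HOX genes, HOXA3 and HOXB3 among them, against 14.7% of all genes. The miR-615-3p match, GGCTCGG, was found in HOXB4 and HOXC6 (5.1% against 3.0%). The table holds no microRNA levels, so a match describes sequence only.

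RefSeq promoters, from 250 bases before to 50 after the start, were at hand for 20 of the 39 HOX genes. The homeodomain core ATTA, searched on both strands, was in 15 of the 20 (75%, against 51.0% of 27305 promoters). HOXC4 and HOXC5 have the same promoter sequence in this set, and its ATTA was counted for both genes. TGATNNAT, the composite site of HOX and PBX proteins, was in 3 (15% against 7.6%), those of HOXA2, HOXB1 and HOXD11. The E-box CACGTG, which reads the same on both strands, was in 8 (40.0% against 7.4%). These were HOXA4, HOXA7, HOXA9, HOXD1, HOXD3, HOXD10, HOXD11 and HOXD13. Shares of promoters were not adjusted for base composition. A HOX gene not named may lack the motif or lack a promoter in this set. Windows around the E-box are given for the HOXA genes, since HOXA4 and HOXA7 rose and HOXA9 did not pass the test. The E-box is in capitals, and all windows are on the minus strand of GRCh38.
HOXA4, chr7:27130940-27130969, E-box at −200 from the start: gtgggggcgctgCACGTGgggcacggggcg
HOXA7, chr7:27156663-27156692, E-box at −5: catgtgggcggtCACGTGctgcggcgagct
HOXA9, chr7:27165591-27165620, E-box at −71: ctgctggacgggCACGTGacgcgcacggcc
The other 4 tested genes with an E-box, HOXD3, HOXD10, HOXD11 and HOXD13, had log2 fold changes of −0.07, 0.06, 0.15 and −0.06. HOXD3 and HOXD13 were thus below 0, but with library size alone they had 0.02 and 0.03, so their side of 0 is not settled.

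Genes next to the clusters were read for comparison, 3 tested protein coding genes on each side. Of these 24, 2 were called and both fell, against calls for 20.9% of all tested genes. ATP5G1, a subunit of ATP synthase beside the HOXB cluster, went from 77.8 ± 8.54 CPM in WT to 56.2 ± 5.54 CPM in KO (SD, n = 2), a log2 fold change of −0.48 (SE 0.10, adjusted p = 0.00119 by edgeR). HNRNPA3, an RNA-binding protein 1022 kb from the HOXD cluster, had a log2 fold change of −0.34 (SE 0.06, adjusted p = 0.000179 by edgeR). Beside the HOXA cluster, SKAP2, SNX10 and CBX3 on one side had 0.23, −0.13 and 0.02, and HIBADH, TAX1BP1 and JAZF1 on the other had −0.24, 0.14 and 0.17. These 6 were not called by edgeR, a count too small to set against that share.

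The proteins that bind with HOX factors or control the clusters were taken as lists. TALE homeodomain proteins, the DNA-binding partners of HOX proteins, were all tested, and of 9 genes 1 rose and 1 fell. MEIS2 had 40.4 and 37.4 CPM in WT and 56.7 and 57.6 CPM in KO, a log2 fold change of 0.56 (SE 0.11) with an adjusted p of 0.000468. PBX2 had 162 and 166 CPM in WT and 128 and 137 CPM in KO, a log2 fold change of −0.31 (SE 0.07) with an adjusted p of 0.00224. Of the ParaHox and EVX genes, relatives of the HOX genes, 2 of 8 passed the filter, and CDX2 fell from 106 ± 5.57 to 83.6 ± 2.71 CPM (SD, n = 2), with a log2 fold change of −0.34 (SE 0.08, adjusted p = 0.00356 by edgeR).

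Polycomb group proteins repress HOX genes by marking their chromatin. Of 12 PRC2 genes, which methylate histone H3, 2 fell and the median was 0.01. AEBP2, an accessory subunit, went from 218 ± 3.93 to 148 ± 13.1 CPM (SD, n = 2), a log2 fold change of −0.56 (SE 0.07, adjusted p = 2.16e-06 by edgeR). EPOP, another accessory subunit listed in the table as C17orf96, had −0.50 (SE 0.14, adjusted p = 0.0119). Of 19 tested PRC1 genes, which include the readers of that mark, 5 fell and the median was −0.04. CBX proteins were among those that fell, with CBX8 at −0.74 (SE 0.19), CBX6 at −0.67 (SE 0.08) and CBX2 at −0.28 (SE 0.09). DESeq2 and limma-voom each called 3 PRC1 genes lower. With library size alone 2 were called higher and 3 lower, with a median of 0.05 against 0.09 for all tested genes. Leaving out WT replicate 2 left 3 PRC1 genes lower, and leaving out KO replicate 1 left 2. CBX6 lies on chromosome 22, whose tested genes had a median of −0.42.

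MLL complexes and DOT1L, which keep HOX genes active, had 3 of 22 genes higher and 6 lower, with a median of −0.07. PAGR1 had the largest change, −1.0 (SE 0.11, adjusted p = 5.54e-07 by edgeR), and lies on chromosome 16, whose tested genes had a median of −0.44. DPY30 and HCFC1 fell by 0.54 (SE 0.13) and 0.31 (SE 0.06) on the log2 scale, and KDM6A, a histone demethylase, rose by 0.31 (SE 0.08). KMT2A, the MLL protein itself, named here after its value was seen, had 192 CPM in both WT libraries and 223 and 222 CPM in KO, a log2 fold change of 0.21 (SE 0.06) with an adjusted p of 0.0175. With library size alone the split turned to 6 higher and 3 lower, with a median of 0.01. That scaling also moved the median of all tested genes, from 0.01 to 0.09. The counts of calls thus depend on the scaling, while the list median lay below that of all tested genes in both fits.

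CTCF and cohesin hold the boundaries of the clusters. Of 11 genes 6 rose and 1 fell, with a median of 0.23. The 2 genes below 0 are named here after their values were seen. SMC1A, a cohesin subunit, was the 1 that fell, at −0.19 (SE 0.06, adjusted p = 0.0367 by edgeR). CTCF itself had −0.14 (SE 0.07) and was not called (adjusted p = 0.138 by edgeR). CTCF lies on chromosome 16, whose tested genes had a median of −0.44. The largest changes were PDS5B at 0.33 (SE 0.09) and NIPBL, STAG1 and STAG2 at 0.30 (SE 0.08, 0.08 and 0.06). DESeq2 called 3 higher and 1 lower, and fits that left out a library called 2 to 5 higher, the 2 without KO replicate 1.

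Retinoic acid, a vitamin A derivative, switches on HOX genes of low number in the embryo. Of 17 genes of its pathway 13 were tested, 2 rose and 2 fell. RARA, a receptor, had 48.4 and 48.3 CPM in WT and 27.6 and 28.2 CPM in KO, a log2 fold change of −0.79 (SE 0.12) with an adjusted p of 2.37e-05. RARB, another receptor, had 0.43 (SE 0.14), DHRS3, which reduces retinal, had 0.58 (SE 0.16), and RXRB, a partner receptor, had −0.38 (SE 0.13). DESeq2 called 1 gene lower and 0 higher in this list, as did the fits without WT replicate 2 and without KO replicate 2. All lists were chosen with results of these data known, and their counts stand beside the 20.9% of all tested genes that were called.

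**Figure D4:**
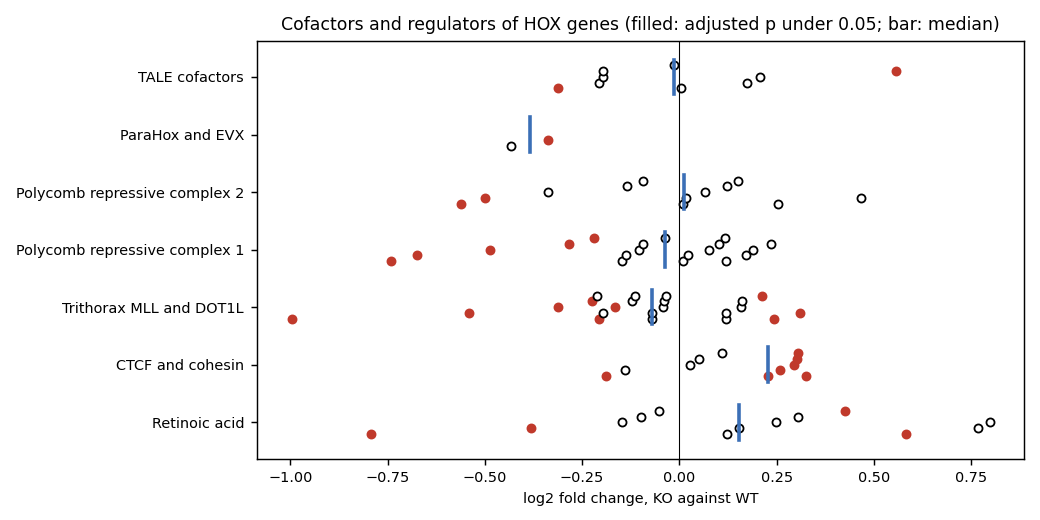
Log2 fold change of each tested gene in the lists of HOX cofactors and regulators, with called genes filled and a bar at the median of each list. CTCF and cohesin genes lie mostly above 0, while called PRC1 genes lie below.

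Markers were read as a check of the cell type. Of 10 embryonic kidney markers 8 passed the filter, and PAX8 and OSR1 were under it. LHX1, a homeodomain factor of the early kidney, had 6 counts in each WT library against 37 and 27 in the KO libraries. Its log2 fold change was 2.12 (SE 0.62) with an adjusted p of 0.0138. At 0.78 and 0.55 CPM in WT and 3.20 and 2.54 CPM in KO, LHX1 passed the filter only through the KO libraries. The filter thus favoured a rise of LHX1, and no conclusion is drawn from its call. It was the only kidney marker called, and none was called without WT replicate 2 or without KO replicate 1. Of 14 markers of other cell types 3 passed the filter. COL1A1 and COL3A1, collagen genes of connective tissue, had log2 fold changes of −0.20 and 0.51 and adjusted p-values of 0.401 and 0.273.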

How the data were processed

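Total RNA of 4 HEK-293T libraries was sequenced, and the values the authors deposited are raw counts, not normalized, with an entry for each gene symbol. The labels name a Zymo-Seq RiboFree kit and build hg19. The methods name Illumina Stranded Ribo-Zero Plus with 3 samples per genotype, STAR, RSEM and GRCh38 with GENCODE 46. Which pipeline made the counts, and whether strand was used, is not given in the sources used here. Samples beyond these 4 were not analysed here. A second deposited table holds the authors' own comparison (means, log2 fold changes, errors, p-values and adjusted p-values) and was not used.

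The quasi-likelihood test of edgeR 4.0.16 in R 4.3.3, with TMM factors, was fitted to the 13128 genes that reached 1 CPM in 2 or more libraries. Benjamini-Hochberg adjustment covered all of these, and the threshold was 0.05. Groups came from the labels. Means carry the SD over 2 libraries, and fold changes their SE. Alternatives were library size alone, DESeq2 1.42.0, limma 3.58.1 (voom with quantile normalization, the method of the paper), no filter beyond 1 count, the replicate number as a block, and each library left out. The scripts were tested on simulated data.

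Genes were placed on GRCh38 by GENCODE 44, 12152 tested genes by symbol and 818 by synonym, since the table has no coordinates. MicroRNAs and promoters are RefSeq's, GRCh38.p14. The rule names every HOX gene, with list genes named where called, at most the 4 largest changes of a list, and the nearest 3 tested coding genes beside each cluster. A few items that the rule names are not reported here, though counts and medians include them. Members and lists were chosen with earlier results of these data known. Replicates were distinct libraries, with a chi-square per degree of freedom of 4.08 between the WT and 6.9 between the KO libraries.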

Additional observations from a re-analysis of the deposited data

How the results depend on the processing

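The 5 HOX genes called (3 higher, 2 lower) became 6 with library size alone (5 higher, 1 lower, median log2 fold change 0.15, while that of all tested genes went from 0.01 to 0.09), 2 with DESeq2 (2 higher, 0 lower), 5 with limma-voom (4 higher, 1 lower, median 0.11) and 5 with no filter beyond 1 count. With a library left out, 2 to 5 were called, 2 to 4 higher and 0 to 2 lower, with a median of 0.00 to 0.10; the cause of these shifts was not tested.

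The replicate numbers were not taken to pair the libraries, since no source says so and 2 pairs are too few to tell (correlation of deviations 0.0243). With the replicate block 6 HOX genes were called (4 higher, 2 lower), HOXB9 among them, and HOXC5 turned to 0.06.

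HOX genes near 0 changed sign. With library size alone HOXB3 was 0.04, HOXC5 0.06, HOXC8 0.05, HOXD3 0.02, HOXD9 0.06 and HOXD13 0.03. With limma-voom HOXB5 was −0.02, HOXC5 0.16, HOXD9 0.04 and HOXD13 0.01. Over the fits without 1 library, HOXA11 ran from −0.39 to 0.11, HOXB3 from −0.11 to 0.02, HOXB5 from −0.25 to 0.26, HOXB8 from −0.14 to 0.29, HOXC5 from −0.67 to 0.91, HOXC8 from −0.21 to 0.13, HOXD3 from −0.31 to 0.18, HOXD8 from −0.10 to 0.57, HOXD9 from −0.30 to 0.26 and HOXD13 from −0.15 to 0.04. Counts of HOXC5, HOXD3 and HOXD4 were 21 to 61 a library, so small differences in them were not detectable at this depth.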
